A study of Homo sapiens with 12 samples.

Results

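The interstitial matrix is the network of collagen fibrils, elastic fibres, adhesive glycoproteins and proteoglycans that surrounds cells outside basement membranes. The 44 genes described here encode its structural proteins and the enzymes and chaperones that hydroxylate, fold, trim and crosslink collagen. They were taken by name, and all 44 were measured, out of 11963 genes on the arrays. They comprise 6 chains of fibrillar collagens, 7 chains of other collagens, 7 matrix glycoproteins, 10 genes of elastic fibres, 4 proteoglycans, 3 enzymes of the lysyl oxidase family, 5 collagen hydroxylases and 2 helpers of procollagen folding and trimming. Each gene was represented by the probe set that named it alone and was brightest on average over all 12 arrays.

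Collagen chains are hydroxylated on proline by P4HA enzymes and on lysine by PLOD enzymes in the endoplasmic reticulum, where the chaperone SERPINH1 (HSP47) holds the triple helix. After secretion the propeptides are trimmed, a step that PCOLCE enhances, and lysyl oxidases crosslink the fibrils. Fibroblasts are the classical source of this matrix, and mesenchymal-like carcinoma cells are known to make some of it themselves.

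The cells of all groups were labelled MDA-MB-231, a human breast cancer cell line of mesenchymal character that lacks hormone receptors. They ask how RNA levels differ when LSD2, the histone H3 lysine 4 demethylase encoded by KDM1B, is lowered by a stable shRNA or raised by a stable expression vector. The 4 groups of 3 arrays each were cells with an LSD2 shRNA, cells with a scramble shRNA, cells with an LSD2/eGFP/Flag vector and cells with an eGFP/Flag vector, and G-418 was added to the medium of all of them to remove untransfected cells. The labels call the replicates biological but do not say whether a line was clonal or pooled. Groups and lines can thus not be told apart, and p-values measure the spread between these arrays.

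No probe set named KDM1B (0 probe sets), so neither the knockdown nor the overexpression was checked on the targeted gene. The values are log2 values of RMA (robust multi-array average). Array medians were 6.65 to 6.71 for the shRNA cells and 7.03 to 7.18 for the vector cells, and the 2 sets were treated as normalized separately, so that differences were taken only within each set. The arrays labelled LSD2/eGFP/Flag stood apart, with a correlation across genes of 0.904 to 0.908 with the eGFP/Flag arrays, against 0.991 to 0.994 between the LSD2 shRNA and scramble arrays. Of 8 markers that MDA-MB-231 cells are known to express, 7 were lower in them, with limma's adjusted p under 0.05, than in the eGFP/Flag arrays, against 0 lower and 0 higher between LSD2 shRNA and scramble arrays (0 at an unadjusted p under 0.05). CD44, the hyaluronan receptor, averaged 3.99 in the LSD2/eGFP/Flag arrays and 12.41 in the eGFP/Flag arrays, and the mean of the 8 markers was 6.59 to 6.89 per array in the first group and 11.96 to 11.99 in the second. Of 5 markers that MDA-MB-231 cells are expected to lack, ERBB3 (2.11) and GATA3 (2.00) were higher in the LSD2/eGFP/Flag arrays by these log2 differences, and CDH1 (-0.01), ESR1 (-0.09) and PGR (-0.02) were not called. The marker values of the LSD2/eGFP/Flag arrays thus go against the cell line on their label, which leaves their identity in doubt. A difference between the vector groups may therefore not be one between cells of the same line with and without added LSD2. These arrays are named by their label throughout, and the part of the marker differences in the matrix results was not tested.

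The members whose differences carry the results are shown first by the letters before their gene starts. The 3 members that were lower by at least 1 log2 unit with the LSD2 shRNA are OLFML3, COL5A1 and FN1. FBN2 and VCAN had the largest rises, and TNC and THBS1 the largest falls, in the LSD2/eGFP/Flag arrays. Each sequence is the 250 bases before the gene's start in RefSeq, assembly GRCh38.p14, written 5′ to 3′ on the gene's strand. Capitals mark every match on either strand. The letters searched were TATAAA (the TATA box), CCAAT (the CCAAT box), GGGCGG (the GC box), TGANTCA (an AP-1-like site) and TGACGTCA (the cyclic AMP response element). N stands for any base, so TGANTCA is wider than the AP-1 site.
OLFML3 (chr1:113979224-113979473, plus strand): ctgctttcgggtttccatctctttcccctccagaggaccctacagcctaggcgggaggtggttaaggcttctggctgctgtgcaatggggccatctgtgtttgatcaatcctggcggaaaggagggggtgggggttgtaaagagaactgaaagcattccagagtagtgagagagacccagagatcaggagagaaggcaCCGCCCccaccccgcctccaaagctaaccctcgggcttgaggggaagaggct
COL5A1 (chr9:134641553-134641802, plus strand): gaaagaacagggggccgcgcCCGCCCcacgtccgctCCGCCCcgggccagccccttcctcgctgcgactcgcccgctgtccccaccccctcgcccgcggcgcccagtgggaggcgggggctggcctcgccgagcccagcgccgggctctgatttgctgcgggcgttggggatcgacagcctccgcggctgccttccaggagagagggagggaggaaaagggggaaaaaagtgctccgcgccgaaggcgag
FN1 (chr2:215436069-215436318, minus strand): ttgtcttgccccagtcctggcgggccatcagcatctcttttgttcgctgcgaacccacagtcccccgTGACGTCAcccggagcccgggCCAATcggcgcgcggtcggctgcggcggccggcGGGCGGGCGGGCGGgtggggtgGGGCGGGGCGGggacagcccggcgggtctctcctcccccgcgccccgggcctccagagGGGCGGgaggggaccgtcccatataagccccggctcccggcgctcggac
FBN2 (chr5:128538246-128538495, minus strand): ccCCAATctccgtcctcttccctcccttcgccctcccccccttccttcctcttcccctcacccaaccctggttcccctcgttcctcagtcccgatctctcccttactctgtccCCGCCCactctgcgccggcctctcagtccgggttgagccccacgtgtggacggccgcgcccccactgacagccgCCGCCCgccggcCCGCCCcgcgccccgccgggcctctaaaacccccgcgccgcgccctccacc
VCAN (chr5:83471494-83471743, plus strand): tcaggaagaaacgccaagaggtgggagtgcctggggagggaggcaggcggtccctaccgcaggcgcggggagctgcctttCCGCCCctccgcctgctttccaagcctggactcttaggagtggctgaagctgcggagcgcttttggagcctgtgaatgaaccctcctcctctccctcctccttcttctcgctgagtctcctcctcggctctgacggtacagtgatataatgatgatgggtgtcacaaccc
TNC (chr9:115118158-115118407, minus strand): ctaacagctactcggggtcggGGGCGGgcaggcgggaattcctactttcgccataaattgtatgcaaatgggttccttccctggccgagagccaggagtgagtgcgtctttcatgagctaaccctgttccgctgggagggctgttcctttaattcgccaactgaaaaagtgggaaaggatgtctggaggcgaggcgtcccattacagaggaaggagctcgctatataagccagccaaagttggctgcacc
THBS1 (chr15:39580829-39581078, plus strand): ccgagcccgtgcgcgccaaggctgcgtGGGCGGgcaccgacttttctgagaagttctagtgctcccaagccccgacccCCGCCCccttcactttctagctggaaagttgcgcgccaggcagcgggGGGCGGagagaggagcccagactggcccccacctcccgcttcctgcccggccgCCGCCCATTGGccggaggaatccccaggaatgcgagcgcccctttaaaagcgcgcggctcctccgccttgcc

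The promoter table held 32 of the 44 members. FN1 was the only member among the 32 with a TGACGTCA match, which 2.79% of the promoters of the genes tested held. A GC box lay in 21 of 32 members (65.6%) and in 60.6% of the promoters of the genes tested, and a CCAAT box in 25.0% of members and 35.6% of those promoters. An exact match to TATAAA was found in 5 of 32 members (15.6%, against 7.93%) and none in the 7 sequences shown. Near-matches to it, such as those close to the gene starts of FN1 and TNC, were not counted. The GC boxes of FN1 overlap one another in runs, and in THBS1 a GC box and a CCAAT box adjoin. Matches to the AP-1-like TGANTCA were found in POSTN and MFAP2 (6.25% of members, against 4.67%). The median G+C content of the windows was 69.6% in members and 63.6% in the genes tested. These are matches of letters in a fixed window and not sites of measured binding.

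The level of each member was placed as a percentile among the genes of its own array, which does not compare amounts of RNA between genes. In all 4 groups, 14 of the 44 members lay below percentile 33.3: COL1A2, COL3A1, COL5A2, COL6A3, COL8A1, COL11A1, COL16A1, THBS2, BGN, DCN, LUM, POSTN, MFAP5 and EFEMP2. RMA gives no detection calls, and values this low have no reliable order. COL8A1 was 3.54 in all 3 scramble arrays, but equal values were not confined to dim genes. FBN1 was 8.04 in LSD2 shRNA replicates 1 and 2, and PCOLCE 6.90 in scramble replicates 1 and 2. In all 4 groups, 5 members lay above percentile 66.7, namely the transmembrane collagen gene COL13A1 and the hydroxylase genes P4HA1, P4HA2, PLOD2 and PLOD3. The other modifying enzymes, PLOD1 and the 3 lysyl oxidases, lay below that percentile in at least 1 group.

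**Figure D1:**
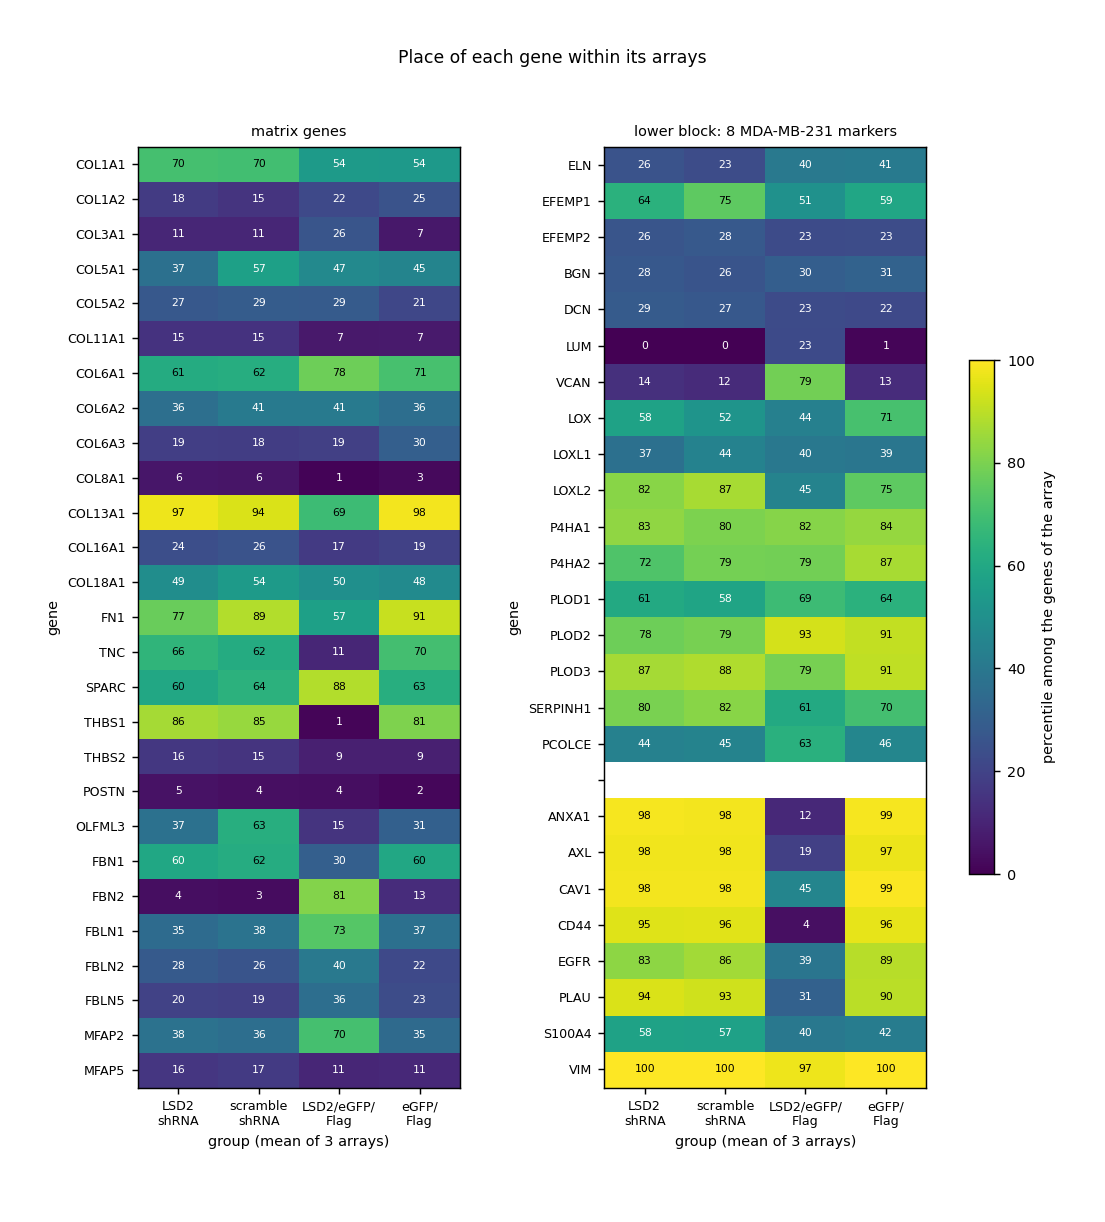
Mean percentile of each of the 44 genes among the genes of its array (colour and printed number, 0 to 100) in the 4 groups, with 8 markers of MDA-MB-231 cells in the lower right block. CD44 and ANXA1 sit near the bottom in the LSD2/eGFP/Flag column and near the top in the other 3 columns, VCAN and FBN2 show the reverse, and COL13A1 is bright in all 4.

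With the LSD2 shRNA, 6 matrix genes fell and 1 rose relative to the scramble shRNA. The falls were OLFML3, COL5A1, FN1, EFEMP1, P4HA2 and COL18A1, and the rise was COL13A1. Calls required an adjusted p under 0.05 in limma's test, with Benjamini-Hochberg adjustment over all 11963 genes. The 7 called members are 15.9% of the 44, against 10.5% of all genes tested, the 6 falls are 13.6% against 5.53%, and the 1 rise is 2.27% against 5.00%. The median difference was -0.03 over the members and -0.01 over all genes. The members were listed with results of these arrays already known, so these shares describe the list and are no independent support for a direction. Without the LSD2/eGFP/Flag arrays in the fit, a setting added after the data were seen, the counts were also 1 rise and 6 falls, but COL18A1 was no longer called (adjusted p = 0.0570 in limma's fit) and SPARC was (0.0410).

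OLFML3, an olfactomedin-domain protein secreted into the matrix, had 6.45, 6.36 and 5.98 log2 units in the LSD2 shRNA arrays, against 8.14, 8.60 and 7.82 in the scramble arrays. The groups did not overlap, and every LSD2 shRNA array lay more than 1 log2 unit below every scramble array. OLFML3 fell by 1.92 ± 0.24 log2 units (standard error of the fit, adjusted p = 0.000248), which is 3.79-fold lower. OLFML2A, a related olfactomedin-like gene from a list of further matrix glycoproteins, fell by 1.28 ± 0.29 (adjusted p = 0.0136 in limma's fit). OLFML1 (-0.06) and OLFML2B (-0.25) of the same list were not called.

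COL5A1, the chain of collagen V that is built into collagen I fibrils and limits their diameter, had 6.09, 6.28 and 6.39 in the LSD2 shRNA arrays, against 7.88, 7.88 and 7.52 in the scramble arrays. Again no arrays overlapped. COL5A1 fell by 1.51 ± 0.17 (adjusted p = 0.000169, 2.84-fold lower), and its other 2 probe sets, both called among all probe sets, were at -1.14 and -0.99. Its partner chain COL5A2 was at -0.11 ± 0.14 and not called, from a dim probe set.

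FN1 encodes fibronectin, the adhesive glycoprotein that integrins bind and assemble into fibrils. It had 9.49, 9.58 and 8.86 in the LSD2 shRNA arrays, against 10.43, 10.66 and 9.93 in the scramble arrays. Replicate 3 was the lowest in each group, and the groups did not overlap. FN1 fell by 1.03 ± 0.22 (adjusted p = 0.0107, 2.05-fold lower). Of its 5 other probe sets, the 3 bright ones differed by -0.92 to -1.09 and were called, and the 2 dim ones were at -0.06 and -0.07.

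EFEMP1, the fibulin-related glycoprotein also called fibulin-3, had 8.39, 8.13 and 8.30 in the LSD2 shRNA arrays, against 9.02, 9.22 and 9.20 in the scramble arrays. It fell by 0.87 ± 0.23 (adjusted p = 0.0294 in limma's fit). The call was lost when any 1 of the 6 compared arrays was left out (limma's adjusted p from 0.0636 to 0.0922). The difference then stayed between -0.93 and -0.80. Of 10 other settings 2 ended the call, the stricter threshold and the average of its 2 probe sets (-0.74, adjusted p = 0.0605 in limma's fit). The fit of the compared groups alone kept it. The main fit pools the spread of all groups, and the SD of EFEMP1 was 0.13 with the LSD2 shRNA, 0.11 with scramble, 0.60 in the LSD2/eGFP/Flag arrays and 0.31 in the eGFP/Flag arrays. P4HA2, a catalytic subunit of prolyl 4-hydroxylase, had 8.98, 9.01 and 8.78 in the LSD2 shRNA arrays, against 9.44, 9.63 and 9.26 in the scramble arrays. It fell by 0.52 ± 0.10 (adjusted p = 0.00551), and the paralogous subunit P4HA1 was at 0.25 ± 0.14 and not called.

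COL18A1, the chain whose C-terminal fragment is endostatin, had 7.24, 7.37 and 6.85 in the LSD2 shRNA arrays, against 7.75, 7.57 and 7.45 in the scramble arrays. The gap between the groups was small, and COL18A1 fell by 0.44 ± 0.12 (adjusted p = 0.0390). This call was lost without LSD2 shRNA replicate 1 or 3 or scramble replicate 1 or 2, with differences of -0.48, -0.28, -0.36 and -0.45. It was also lost in a fit of the compared groups alone (adjusted p = 0.100 in limma's fit) and after scaling by cyclic loess (0.0576). Its second probe set was at -0.51 and called.

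COL13A1, a transmembrane collagen of cell junctions, was the only rise, with 11.90, 11.98 and 11.77 in the LSD2 shRNA arrays against 11.09, 11.45 and 10.83 in the scramble arrays. It rose by 0.76 ± 0.19 (adjusted p = 0.0230). The other probe sets gave 0.65, which was called, and 0.47, which was not. Leaving out LSD2 shRNA replicate 1 or 2 or scramble replicate 1 or 3 ended the call, with differences from 0.62 to 0.76.

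**Figure D2:**
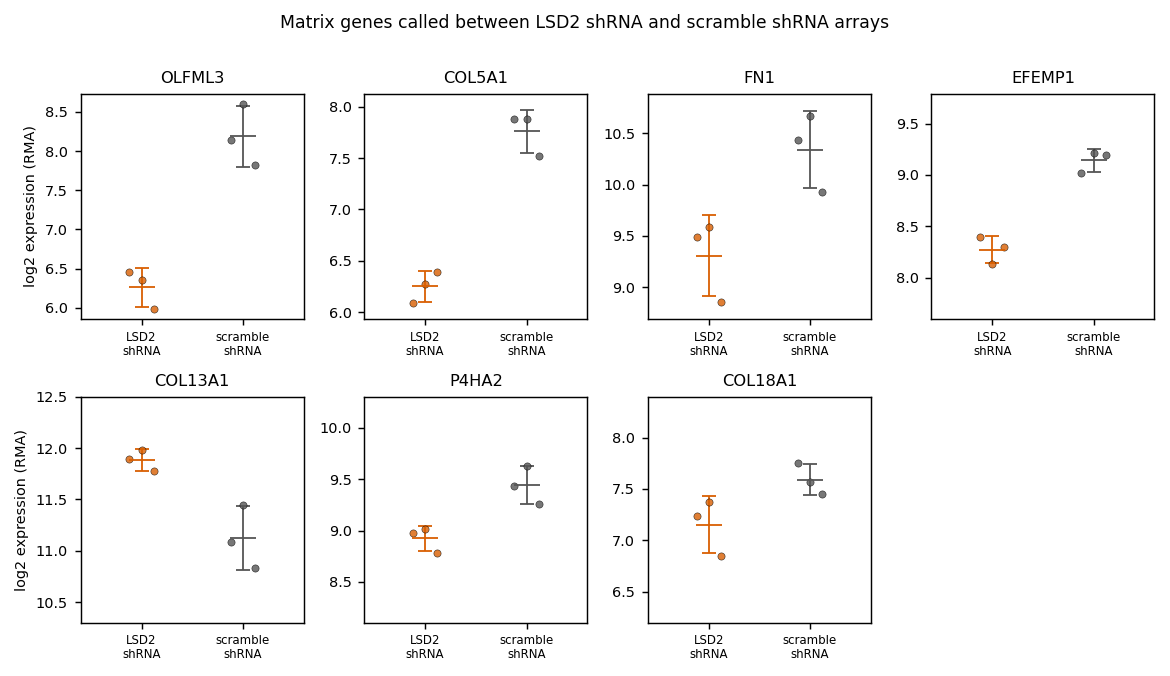
RMA log2 expression of the 7 called members in LSD2 shRNA and scramble shRNA arrays, with a point for each of the 3 arrays of a group and the mean ± SD as bars. The groups overlap in none of the 7 panels; COL13A1 lies higher in the LSD2 shRNA arrays and the other 6 lie lower.

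The remaining 37 members were not called in this comparison, and their differences ran from -0.59 (LOXL1) to 0.39 (LOX). In 17 of the 44 members (38.6%) the 2 groups of arrays did not overlap, against 28.3% of all genes. Among the crosslinking enzymes none passed the test. LOX was at 0.39 ± 0.13 (adjusted p = 0.0779), LOXL1 at -0.59 ± 0.30 (0.274) and LOXL2 at -0.41 ± 0.19 (0.234) in limma's fit. LOX was called after scaling by cyclic loess (adjusted p = 0.0494 by limma) or to equal medians (0.0307).

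The hydroxylases PLOD1 (0.14 ± 0.10), PLOD2 (-0.10 ± 0.08) and PLOD3 (-0.18 ± 0.07) and the helpers SERPINH1 (-0.18 ± 0.17) and PCOLCE (-0.08 ± 0.16) were not called. For PLOD2, the lysyl hydroxylase known for telopeptide crosslinks, the other probe set was at -0.60 and called, as was the mean of both (-0.35). None of the 4 proteoglycan genes was called (0 rose, 0 fell), and all 4 lay below percentile 33.3 in both groups. Of the 10 elastic fibre genes EFEMP1 alone was called, and FBN1, the main fibrillin of adult microfibrils, was at -0.19 ± 0.16.

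The 7 matrix glycoprotein genes gave no call beyond OLFML3 and FN1. SPARC was at -0.33 ± 0.12, and was called in the fit of the compared groups alone (adjusted p = 0.0481 in limma's fit) and with its 2 probe sets averaged (-0.54), and the tenascin TNC at 0.28 ± 0.12. THBS1, thrombospondin-1, gave 0.16 ± 0.24, while its 4 other probe sets gave -0.52, -0.70, -0.33 and -0.16, none of them called. The probe set at -0.52 was slightly dimmer than the one used with the LSD2 shRNA and brighter with scramble. It averaged 9.96 with the LSD2 shRNA and 10.48 with scramble, against 10.10 and 9.93 for the one used. The brightest probe set of COL1A1 gave 0.04 ± 0.08, whereas a dimmer one was at -0.53 and called, with group means of 4.16 for LSD2 shRNA and 4.69 for scramble. The level of COL1A1 thus depends on the probe set chosen, in this comparison and in the next.

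Further genes of the same pathways were listed by their function, also with earlier results of these data known. Of 19 other collagen genes measured, 0 rose and 0 fell in limma's test (1 at an unadjusted p under 0.05). Of 21 other genes of collagen synthesis and processing, 1 rose and 2 fell, which is 14.3% called against 10.5% of all genes. CRTAP, a partner of prolyl 3-hydroxylase, rose by 0.47 ± 0.08, KLHL12, an adaptor for procollagen export vesicles, fell by 0.38, and PCOLCE2 fell by 0.33. Of 41 other glycoproteins and proteoglycans, 1 rose and 7 fell (19.5% called). LTBP1, which tethers latent TGF-beta to the matrix, rose by 1.01 ± 0.23, and ECM1 fell by 0.93 beside OLFML2A. The median differences of the 3 lists were 0.01, -0.06 and -0.01.

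Markers of cells that could add matrix RNA were only in part low in the shRNA arrays. Below percentile 33.3 in both groups lay 5 of 6 fibroblast, 4 of 5 endothelial and 2 of 4 blood markers. Of 6 fibroblast markers 0 were called in limma's fit (1 at an unadjusted p under 0.05), and their mean log2 value per array was 5.46 to 5.48 with the LSD2 shRNA and 5.45 to 5.49 with scramble. Of 5 endothelial markers PECAM1 rose by 0.92, and of 4 blood markers CD14 fell by 0.29. The endothelial mean was 5.02 to 5.21 per LSD2 shRNA array and 4.89 to 4.94 per scramble array, and the blood mean 5.08 to 5.27 and 5.26 to 5.37. Their part in the matrix results was not tested.

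**Figure D3:**
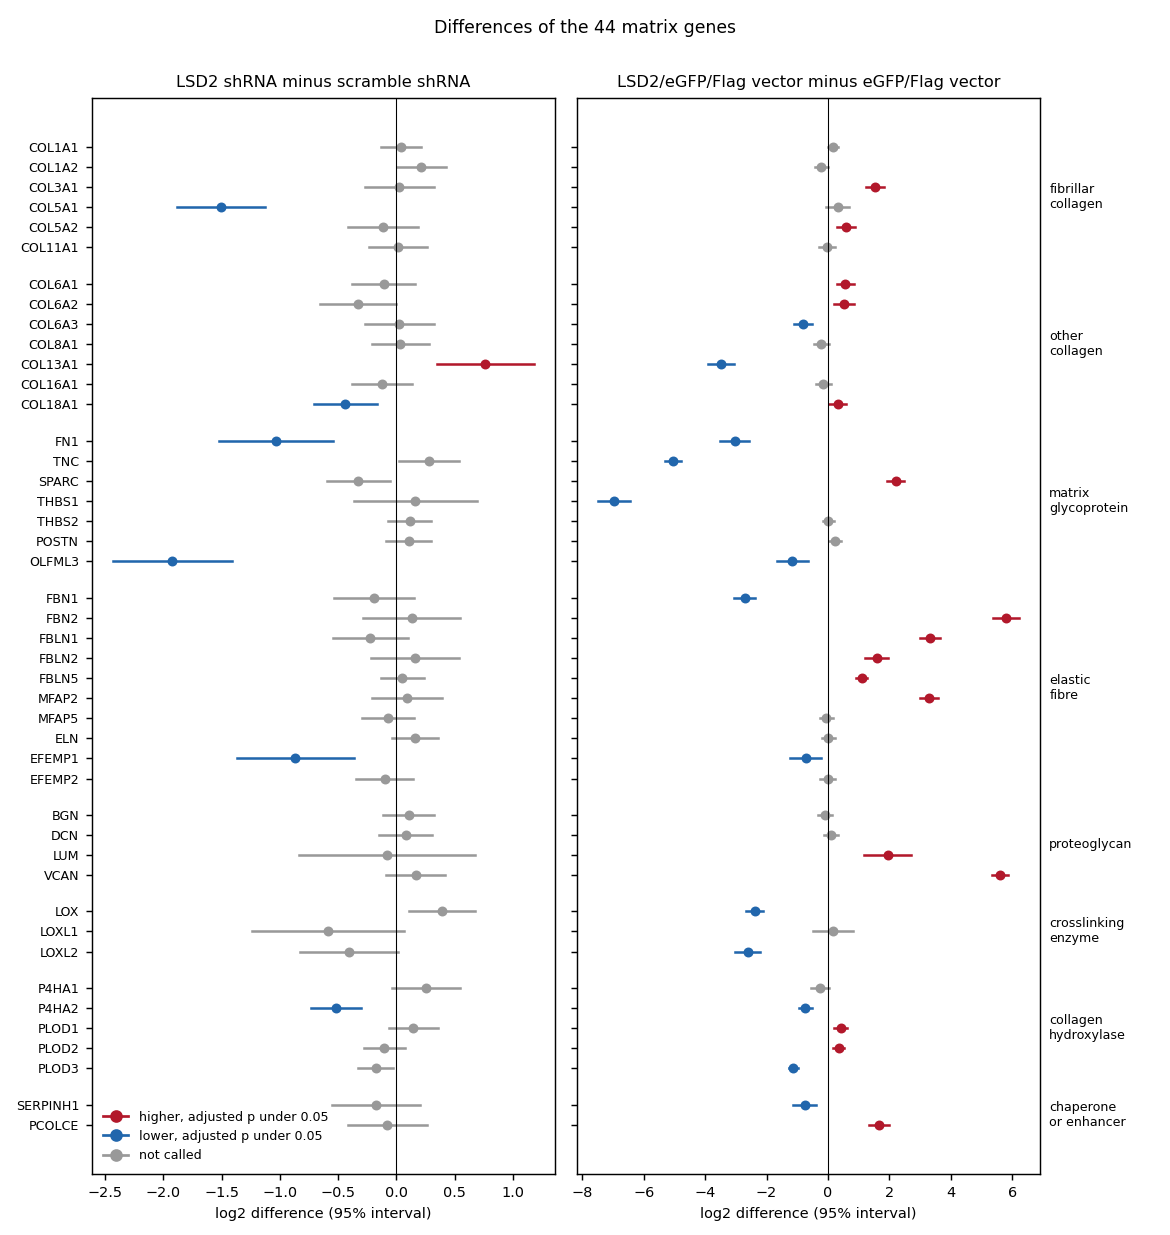
Log2 differences of the 44 members with 95% intervals of the fit, for LSD2 shRNA minus scramble shRNA (left) and LSD2/eGFP/Flag minus eGFP/Flag (right), grouped by role; red is called higher, blue called lower and grey not called. The left panel holds 1 red and 6 blue points between -1.92 and 0.76, and the right panel 16 red and 13 blue points between -6.97 and 5.80; the 2 horizontal scales differ.

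Between the arrays labelled LSD2/eGFP/Flag and the eGFP/Flag arrays, 16 members rose and 13 fell. The microfibril genes FBN2 and MFAP2, the fibulins FBLN1, FBLN2 and FBLN5, the proteoglycan VCAN and SPARC rose. THBS1, TNC, FN1, FBN1, COL13A1 and the crosslinking enzymes LOX and LOXL2 fell. The 29 called members are 65.9% of the 44, against 57.0% of all genes. Rises were 36.4% of members against 30.9% of all genes, falls 29.5% against 26.1%, and 19 members (43.2%) were called and at least 1 log2 unit apart, against 18.3% of all genes. The median difference was 0.01 over the members and 0.01 over all genes. Scaling to equal medians put the median of all genes at -0.12. It gave 2920 genes higher and 4295 lower, against 3701 higher and 3123 lower on the deposited scale, and 15 rises and 17 falls among the members. In 31 members (70.5%) the arrays of the groups did not overlap, against 61.1% of all genes. The marker values above apply to each value that follows. In a whole-culture sample, fewer cells that make an RNA and less of it per cell cannot be told apart.

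THBS1, an adhesive glycoprotein that activates latent TGF-beta, had the largest difference among the members. It had 3.58, 3.80 and 3.32 in the LSD2/eGFP/Flag arrays, against 10.57, 11.02 and 10.02 in the eGFP/Flag arrays, which are mean percentiles of 1.33 and 80.6. THBS1 fell by 6.97 ± 0.24 (adjusted p = 2.5e-11), and 2 other probe sets were called at -3.51 and -1.94. Its remaining 2 were at -0.05 and -0.20 and not called, and the mean over all 5 was at -2.53.

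TNC, a hexameric glycoprotein of remodelling stroma, had 4.69, 4.61 and 4.49 in the LSD2/eGFP/Flag arrays, against 9.57, 9.46 and 9.90 in the eGFP/Flag arrays. The values are bright in the vector control and dim in the arrays labelled with LSD2. TNC fell by 5.05 ± 0.12 (adjusted p = 3.9e-13). Its other, dim probe set was at -0.62 and called, and the mean of both was at -2.84. FN1 had 8.75, 8.24 and 8.76 in the LSD2/eGFP/Flag arrays, against 11.80, 11.32 and 11.77 in the eGFP/Flag arrays. It fell by 3.05 ± 0.22 (adjusted p = 5.4e-08), and all 5 other probe sets were lower and called, with differences from -0.57 to -3.25.

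SPARC, a collagen-binding matricellular protein, moved the other way, with 11.44, 10.88 and 11.29 in the LSD2/eGFP/Flag arrays against 8.89, 9.11 and 9.01 in the eGFP/Flag arrays. It rose by 2.20 ± 0.12 (adjusted p = 3.4e-09). OLFML3 fell by 1.16 ± 0.24, from dim probe set values in both groups. THBS2 (0.01 ± 0.09) and POSTN (0.22 ± 0.09, adjusted p = 0.0503 in limma's fit) were dim in both groups and not called.

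The elastic fibre genes split. FBN2, the fibrillin best known from developing tissue, had 10.70, 10.56 and 10.37 in the LSD2/eGFP/Flag arrays, against 4.16, 5.23 and 4.83 in the eGFP/Flag arrays. It rose by 5.80 ± 0.19 (adjusted p = 1.4e-11), and by 2.73 with its other probe set. FBN1 had 6.22, 5.96 and 6.02 in the LSD2/eGFP/Flag arrays, against 8.95, 8.55 and 8.83 in the eGFP/Flag arrays. It fell by 2.71 ± 0.16 (adjusted p = 4.7e-09), so that the 2 fibrillin genes changed in opposite directions.

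FBLN1, a fibulin of microfibrils and basement membranes, had 10.16, 9.52 and 10.03 in the LSD2/eGFP/Flag arrays, against 6.34, 6.66 and 6.75 in the eGFP/Flag arrays. It rose by 3.32 ± 0.15 (adjusted p = 3.1e-10), as it did with 2 other probe sets (3.49 and 3.72), while its last 2 were at -0.10 and 0.01 and the mean over all 5 was 2.09. MFAP2, a small glycoprotein that binds fibrillin, had 9.74, 9.45 and 9.83 in the LSD2/eGFP/Flag arrays, against 6.66, 6.47 and 6.05 in the eGFP/Flag arrays, and rose by 3.28 ± 0.14 (adjusted p = 1.5e-10). The fibulins FBLN2 (1.58 ± 0.17) and FBLN5 (1.09 ± 0.09) rose as well. ELN, elastin itself, was at 0.01 ± 0.09 (95% interval -0.19 to 0.21).

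EFEMP1 fell by 0.72 ± 0.23, with overlapping groups. Its lowest array, LSD2/eGFP/Flag replicate 2 at 7.33, carried much of that. Without that array the difference was -0.39 and no longer called (adjusted p = 0.0530 in limma's fit), and without eGFP/Flag replicate 1 it was -0.59 (0.0720). The fit of the compared groups alone did not call it either (0.0560), while its other probe set was at -1.31 and called.

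Among the proteoglycans, VCAN, the large chondroitin sulfate proteoglycan versican that binds hyaluronan, had 10.40, 10.41 and 10.21 in the LSD2/eGFP/Flag arrays, against 4.47, 4.74 and 5.01 in the eGFP/Flag arrays. It rose by 5.60 ± 0.12 (adjusted p = 1.3e-13), and each of its 4 other probe sets was higher and called, by 2.01 to 5.44. LUM, a small leucine-rich proteoglycan, had 5.90, 4.34 and 6.22 in the LSD2/eGFP/Flag arrays, against 3.30, 3.96 and 3.38 in the eGFP/Flag arrays. It rose by 1.94 ± 0.35 (adjusted p = 0.000274) within the lowest percentiles, and LSD2/eGFP/Flag replicate 2 was the lowest of its group. DCN, which is the next protein-coding gene to LUM on its chromosome, was at 0.11 ± 0.10 and not called.

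The collagen chains had mostly smaller differences. COL13A1 had 9.67, 9.05 and 9.88 in the LSD2/eGFP/Flag arrays, against 13.08, 12.79 and 13.16 in the eGFP/Flag arrays. It fell by 3.48 ± 0.19 (adjusted p = 2.9e-09), and its other probe sets differed by -2.53 and -2.15. COL3A1 rose by 1.54 ± 0.14 and COL5A2, its neighbour on chromosome 2, by 0.58 ± 0.14, both from dim probe sets. The other probe sets of COL3A1 were at 0.86 and 0.55, both called, and at 0.05, with a mean over all 4 of 0.75. The other probe set of COL5A2 was at -0.04, opposite in sign and not called, and the mean of both was 0.27 and called. Of the collagen VI chains, COL6A1 (0.56 ± 0.12) and its neighbour COL6A2 (0.53 ± 0.15) rose and COL6A3 fell by 0.82 ± 0.14. The difference of COL6A2 was 0.35 without eGFP/Flag replicate 2, and it was 0.15 and not called with the mean of its 2 probe sets. That of COL6A1 was 0.22 with the mean of its probe sets, and called.

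COL18A1 rose by 0.31 ± 0.12 (adjusted p = 0.0470 in limma's fit). Its call was lost without LSD2/eGFP/Flag replicate 1 (0.28) or 3 (0.28) or eGFP/Flag replicate 2 (0.30) or 3 (0.27), and after scaling by cyclic loess (0.19) or to equal medians (0.17) and with array weights (0.32), whereas its second probe set rose by 1.84 and the mean of both was 1.08. COL1A1 was not called by its brightest probe set (0.15 ± 0.08). A dimmer probe set averaged 7.37 in the LSD2/eGFP/Flag arrays and 5.03 in the eGFP/Flag arrays, a difference of 2.34 that was called. The name of the brightest one ends in x_at, the array maker's mark for probes that may bind other transcripts. So do those of FN1 and VCAN, whose other probe sets include called ones without that mark, and those of BGN and DCN. BGN and DCN were not called, and their other probe sets had the opposite sign and were not called either. COL5A1 was at 0.32 ± 0.17 and not called, and was called at 0.54 without LSD2/eGFP/Flag replicate 2.

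The crosslinking enzymes LOX and LOXL2 fell. LOX had 7.34, 7.14 and 7.50 in the LSD2/eGFP/Flag arrays, against 9.75, 9.54 and 9.87 in the eGFP/Flag arrays, and fell by 2.39 ± 0.13 (adjusted p = 2.3e-09). LOXL2 had 7.58, 7.06 and 7.67 in the LSD2/eGFP/Flag arrays, against 10.04, 9.82 and 10.32 in the eGFP/Flag arrays, and fell by 2.62 ± 0.19 (adjusted p = 5.4e-08). LOXL1, which acts mainly on elastin, was at 0.17 ± 0.30 (95% interval -0.48 to 0.82), too wide to tell a change from none. The other probe sets of LOX were at -2.02, which was called, and -0.20, and those of LOXL2 at -0.44, which was called, and 0.15. Averaged over probe sets, LOX was at -1.54 and LOXL2 at -0.97, both still called.

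The enzymes of the endoplasmic reticulum changed less and not together. P4HA2 fell by 0.74 ± 0.10, and P4HA1 was at -0.27 ± 0.14 and not called. PLOD1 (0.41 ± 0.10) and PLOD2 (0.35 ± 0.08) rose, and PLOD3, which also glycosylates hydroxylysine, fell by 1.13 ± 0.07. PLOD1 and PLOD2 stayed called and higher after scaling to equal medians. SERPINH1 had 8.96, 9.31 and 8.42 in the LSD2/eGFP/Flag arrays, against 9.60, 9.78 and 9.61 in the eGFP/Flag arrays, and fell by 0.76 ± 0.17. PCOLCE had 8.97, 8.94 and 9.42 in the LSD2/eGFP/Flag arrays, against 7.23, 7.34 and 7.78 in the eGFP/Flag arrays, and rose by 1.66 ± 0.16 (adjusted p = 6.2e-07).

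**Figure D4:**
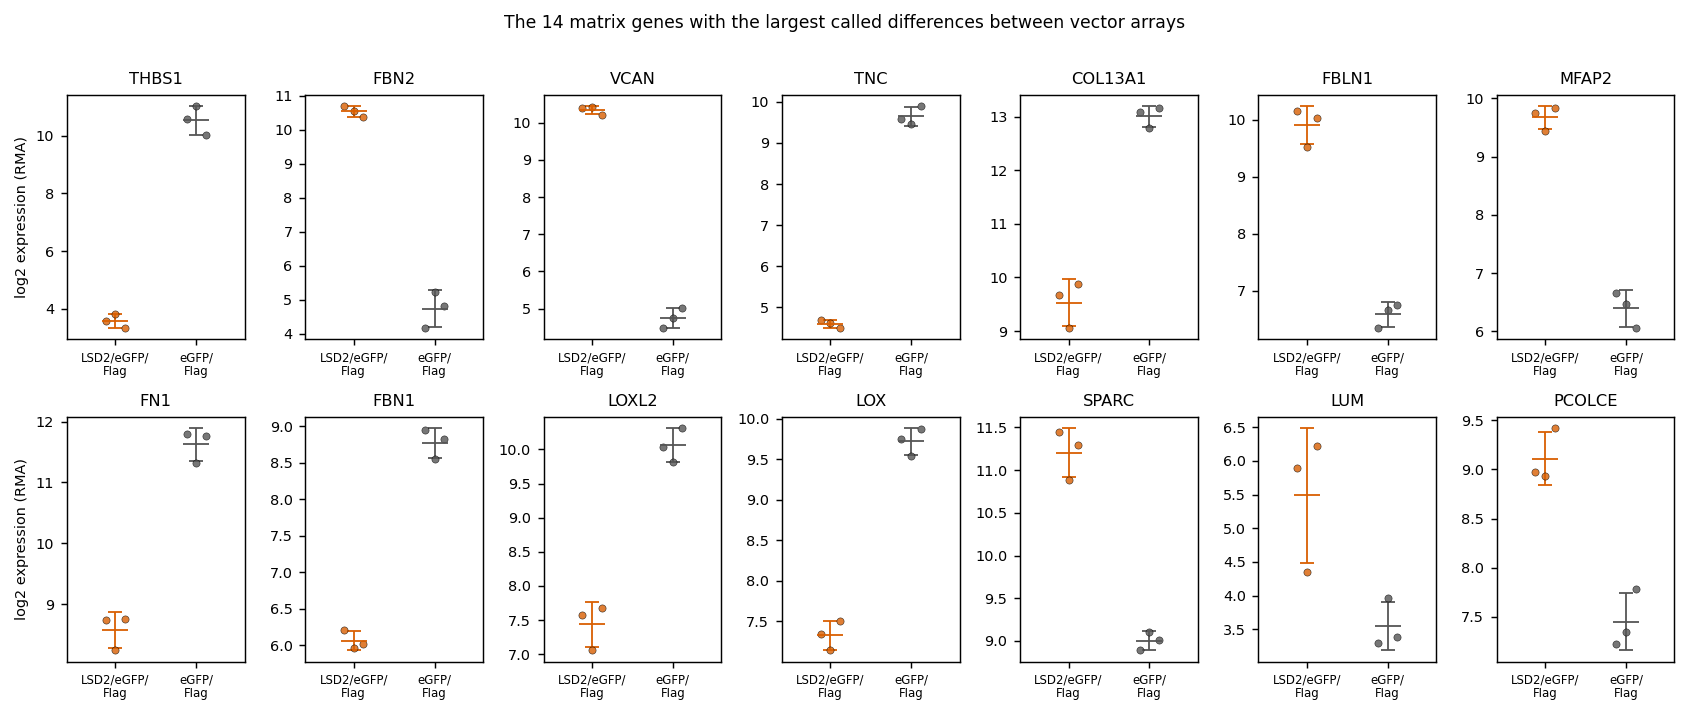
RMA log2 expression of the 14 members with the largest called differences in LSD2/eGFP/Flag and eGFP/Flag arrays, with a point for each of the 3 arrays of a group and the mean ± SD as bars. The groups overlap in none of the 14 panels, and the LUM values of the LSD2/eGFP/Flag arrays spread most, from 4.34 to 6.22.

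Of 19 other collagen genes 4 rose and 3 fell, which is 36.8% called against 57.0% of all genes. The largest differences were those of the cartilage collagens COL2A1 (4.93 ± 0.13) and COL9A3 (3.57 ± 0.16) and the basement membrane chain COL4A6 (3.64 ± 0.16). Of 21 synthesis and processing genes 10 rose and 4 fell (66.7% called). P3H2, a prolyl 3-hydroxylase, fell by 3.87, while the procollagen N-proteinase ADAMTS3 (1.79 ± 0.12) and PCOLCE2 (1.39 ± 0.09) rose. Of 41 other glycoproteins and proteoglycans 3 rose and 7 fell (24.4% called). The largest falls were TGFBI, a collagen-binding adhesion protein (fell by 6.75), LTBP1 (fell by 1.99) and ECM1 (fell by 1.96). Fibroblast markers averaged 5.65 to 5.90 per LSD2/eGFP/Flag array and 5.57 to 5.85 per eGFP/Flag array. Among the 6, ACTA2 (0.60), PDGFRA (0.26) and DPT (0.20) rose. The other 3 lay below 0, down to -0.23, and were not called. Of 5 endothelial markers 1 rose and 2 fell, and of 4 blood markers 0 were called in limma's fit (1 at an unadjusted p under 0.05), with means of 5.19 to 5.22 and 6.10 to 6.31 per LSD2/eGFP/Flag array and 5.23 to 5.29 and 6.16 to 6.20 per eGFP/Flag array. Their part in the matrix results was not tested.

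Set side by side, FN1, EFEMP1, P4HA2 and OLFML3 fell in both comparisons, COL13A1 rose with the LSD2 shRNA and fell in the LSD2/eGFP/Flag arrays, and COL18A1 did the opposite. COL5A1 was called with the LSD2 shRNA alone, 23 members in the vector comparison alone, and 14 in neither. The 4 genes that fell in both are 9.09% of the members, against 1.96% of all genes. The list was made with results of these arrays known, so this share is no independent support. EFEMP1 lost its call in all 6 shRNA fits that left out 1 array and in 2 such vector fits. OLFML3 lay below percentile 33.3 in both vector groups. The 2 members that changed in opposite directions are 2.27% each way, against 2.71% of all genes that rose with the shRNA and fell with the vector and 2.26% that did the reverse. COL13A1 with the shRNA, and COL18A1 in each comparison, lost the call in 4 of the 6 fits that left out 1 array. The 7 members called with the LSD2 shRNA lie on chromosomes 1, 2, 5, 9, 10 and 21.

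Members with several probe sets gave a check on these calls within the arrays. In the shRNA comparison 5 of the 7 called members had other probe sets, and for 4 of them at least 1 other was called in the same direction, EFEMP1 being the exception (-0.62). In the vector comparison this held for 15 of 18. In neither was another probe set of a called member called in the opposite direction (0 of 5 and 0 of 18). Of the members not called, 2 of 24 in the shRNA comparison (COL1A1 and PLOD2) and 1 of 11 in the vector comparison (COL1A1) had another probe set that was called. These calls were adjusted over all 19064 probe sets that name 1 gene.

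**Figure D5:**
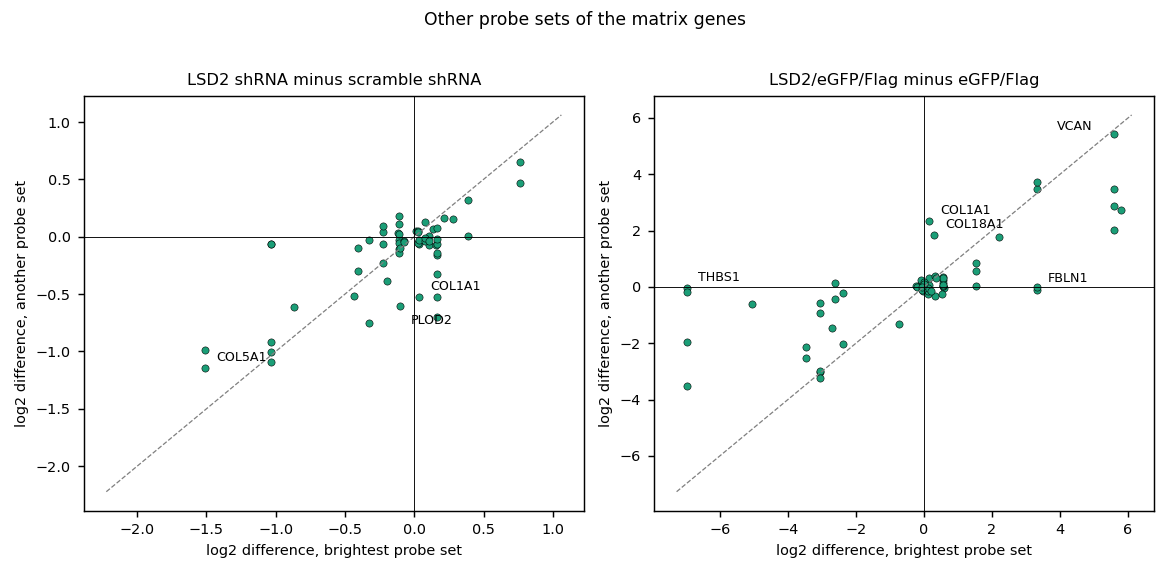
Log2 difference of each further probe set of a member (vertical) against that of the member's brightest probe set (horizontal), for LSD2 shRNA minus scramble shRNA (left) and LSD2/eGFP/Flag minus eGFP/Flag (right), with the dashed line marking equal differences. The labelled THBS1 point of the right panel is near 0 (-0.05) where the brightest probe set is at -6.97, and the labelled COL1A1 points lie away from 0 mainly on the vertical axis (-0.53 left, 2.34 right).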

How the data were processed

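RNA of 12 cultures was measured on Affymetrix 3′ arrays, and the values the authors deposited are log2 intensities of 22277 probe sets, made with RMA per the submitters' processing notes. RMA corrects background, normalizes by quantiles and summarizes probes. Its software version is not given in the sources used here. Besides 62 controls, 19064 probe sets had 1 gene in the platform annotation, 1043 had several and 2108 had none listed. Gene identifiers were matched to RefSeq of GRCh38.p14 for 19052 probe sets, and the other 12 kept the annotation's name. Probe sets of several genes were left out.

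The deposited log2 values were fitted with limma 3.58.1 in R 4.3.3, with a mean for each group, all 12 arrays in 1 fit (8 residual and 4.82 prior degrees of freedom), two-sided tests and Benjamini-Hochberg adjustment over 11963 genes. The number of arrays limits the precision. The procedure was tested on simulated data. The simulated noise was independent between arrays, unlike the shared deviations of shRNA replicates 2 and 3 given below. Every member could be named; up to 14 called members per comparison with the largest differences got the value of each array, and up to 3 called genes were named per further list. The members and lists were chosen with earlier results of these data known. Alternatives were a replicate block, the compared groups alone, 2 other scalings, the dimmest genes left out, a gene's mean over its probe sets, a variance trend on intensity, weights per array, an adjusted p under 0.01 and leaving out each array.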

Additional observations from a re-analysis of the deposited data

How the results depend on the processing

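No direction of a called member reversed under any of the settings run in either comparison (0 results). With the LSD2 shRNA, OLFML3, COL5A1, FN1 and P4HA2 stayed called in all 6 fits that left out an array and, except FN1 at the stricter threshold, in every other setting. In the vector comparison 27 of 29 called members held in all such fits, the exceptions being EFEMP1 and COL18A1. The members called with the LSD2 shRNA numbered 7, and 11 with array weights, 3 at an adjusted p under 0.01 and 4 to 7 without an array. The rises, 1 in all, were 2 after cyclic loess, 2 after equal medians, 3 with array weights, 0 at an adjusted p under 0.01 (limma; 13 members had an unadjusted p under 0.05 in either direction) and 0 to 3 without an array. The falls, 6 in all, were 8 with array weights, 7 with the mean of all probe sets and 5 after cyclic loess. They were 3 at the stricter threshold and 4 to 5 without an array. Over all genes, 1260 calls became 2350 with array weights, 564 at the stricter threshold, 774 without LSD2 shRNA replicate 1, 752 without scramble replicate 1 and 832 without scramble replicate 2, with a range of 752 to 1022 over arrays left out. In the vector comparison, the 16 rises became 9 when the dimmest genes were left out, which removes low members from the test, and calls over all genes ran from 6411 to 6611 without an array, members called from 28 to 30, rises from 15 to 17 and falls from 12 to 15. The cause of the other changes was not tested.

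Arrays of the same replicate number deviated together for numbers 2 and 3 of the shRNA arrays (r = 0.508 and 0.446 across genes) and not for number 1 (0.0204). In the vector arrays r was -0.142, 0.175 and 0.182. The numbers were therefore not taken as pairs. With the replicate block, 11 members were called with the LSD2 shRNA, 2 higher and 9 lower, adding LOX, COL6A2, LOXL1 and LOXL2, and 1640 genes in all. In the vector comparison the block gave 31 members and 6963 genes. RMA values carry no detection calls, so the levels of dim members have no order.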
